A study of Mus musculus with 4 samples.

Results

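The genes described here are those of the integrin chains, of intercellular adhesion molecules (the Icam genes) and of 8 further adhesion genes, namely Cd44, Selplg, Pecam1, Vcam1, Cd2, Cd226, Fermt3 and Tln1. They were taken by gene symbol alone, with no use of measured values, and gave 38 of the 24421 genes in the count files. These were 18 integrin alpha chains, 8 integrin beta chains, 4 Icam genes and the 8 others. All but Icam5 passed the filter on low counts, so 37 of 38 were tested among 16322 genes.

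The cells were regulatory T cells (Tregs), CD4 T cells that carry the transcription factor Foxp3 and restrain immune responses. Tumor-free CD45.1-negative mice of the strain B6 Foxp3-DTR/GFP, in which Foxp3-expressing cells make a diphtheria toxin receptor and a green fluorescent protein, were joined by parabiosis to CD45.1-positive mice given EG7.1.15 tumor cells into the peritoneum. At day 14, partner-derived Tregs (live, CD45.1-negative, CD45.2-positive, B220-negative, CD4-positive, CD25-positive and GFP-positive) were sorted from omental tumors and from the spleens of the tumor-bearing parabionts. Both groups therefore share the reporter allele, the parabiosis and the tumor, and differ in the tissue the cells had reached. Each tissue gave 1 library from mouse 2 and 1 from mouse 3. The labels give no age or number of cells.

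Integrins are paired receptors of an alpha and a beta chain that bind matrix proteins or ligands on other cells. T cells circulate with most of their integrins in a low-affinity state, and chemokine or antigen receptor signals bring talin and kindlin to the beta chain tail, which opens the receptor. Selectin ligands such as PSGL-1 slow a T cell on the vessel wall, the integrins LFA-1 and VLA-4 then arrest it on ICAM-1 and VCAM-1, and CD44 binds hyaluronan in the tissue. Tregs in barrier tissues are known for integrin alphaE beta7, which binds E-cadherin, and for alphaV beta8, which releases active TGF-beta.

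Levels are CPM, the counts of a gene relative to library sizes that were scaled by TMM, a trimmed-mean correction for composition. Log2 fold changes compare omental tumor with spleen, with positive values for higher in omental tumor. A gene was called where the adjusted p from edgeR's quasi-likelihood test with Benjamini-Hochberg adjustment over all genes tested was below 0.05. The libraries held 3764508 to 6660230 counts in genes in omental tumor and 9989005 to 13598631 in spleen, so that 3 counts equal 0.275 to 0.760 CPM. Foxp3 stood at 81.4 and 84.3 CPM in the omental libraries and at 113 and 144 CPM in the spleen libraries, and all 13 genes of a Treg and T cell list were detected in every library. Of these 13, 0 were called in edgeR (0 at an unadjusted p below 0.05), 11 had negative log2 fold changes (84.6%, against 46.4% of all genes tested) and 8 had both omental values below both spleen values (61.5%, against 25.4%), with a median of -0.65. Among them Cd4 stood at 376 and 114 CPM in omental tumor and 568 and 1008 CPM in spleen, and Ptprc, which encodes CD45, at 2077 and 925 CPM against 2596 and 4034 CPM. Genes that mark other cells were detected too: neutrophil markers summed to 155 CPM (mouse 2) and 1459 CPM (mouse 3) in omental tumor, and to 102 and 70.6 CPM in spleen. These are bulk libraries, in which more cells of a type and more RNA per cell cannot be told apart. The omental library of mouse 3 also held less of long transcripts. Relative to the omental library of mouse 2, its median log2 difference was -0.20 over the third of genes with the shortest exons and -0.90 over the third with the longest.

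The start regions of 4 integrin alpha chain genes are shown. Of these, Itgam, Itgax and Itgav stood higher in both omental libraries than in either spleen library. The same held for Itga1, Itga3 and Itga11, whose start regions are not shown. Itga4, an abundant alpha chain of T cells, did not stand higher. Each line holds the 250 bases before the RefSeq start of the gene in GRCm38.p6, on the plus strand, at chr7:128062390-128062639 for Itgam, chr7:128129300-128129549 for Itgax, chr2:83724147-83724396 for Itgav and chr2:79255176-79255425 for Itga4. Capitals mark matches on either strand to GAGGAA (the core bound by the myeloid factor PU.1), TGTGGT (the RUNX core) or TGANTCA (AP-1). The 4 regions and the 3 motifs were chosen after the values and matches were seen.
Itgam: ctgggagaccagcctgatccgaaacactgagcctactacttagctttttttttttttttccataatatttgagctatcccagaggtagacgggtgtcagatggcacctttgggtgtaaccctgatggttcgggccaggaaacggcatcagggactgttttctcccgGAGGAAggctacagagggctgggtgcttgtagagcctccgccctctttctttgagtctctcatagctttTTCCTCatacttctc
Itgax: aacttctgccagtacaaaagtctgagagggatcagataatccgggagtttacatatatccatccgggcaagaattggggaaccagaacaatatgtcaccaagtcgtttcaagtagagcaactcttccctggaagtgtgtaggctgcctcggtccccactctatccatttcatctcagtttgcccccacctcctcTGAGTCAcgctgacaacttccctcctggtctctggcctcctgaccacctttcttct
Itgav: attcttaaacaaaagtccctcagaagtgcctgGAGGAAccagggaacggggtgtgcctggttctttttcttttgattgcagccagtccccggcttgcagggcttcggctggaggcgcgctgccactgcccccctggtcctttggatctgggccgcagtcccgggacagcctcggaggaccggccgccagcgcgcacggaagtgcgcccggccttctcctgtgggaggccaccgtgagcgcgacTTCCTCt
Itga4: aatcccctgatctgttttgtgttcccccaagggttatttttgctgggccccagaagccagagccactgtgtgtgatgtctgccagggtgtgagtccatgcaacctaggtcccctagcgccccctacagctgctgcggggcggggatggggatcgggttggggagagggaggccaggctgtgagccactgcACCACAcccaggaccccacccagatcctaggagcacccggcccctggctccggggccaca
The Itgam region held GAGGAA beginning 84 bases before the start and its complement TTCCTC 15 bases before it, and the Itgav region held them 218 and 7 bases before. The Itgax region held 1 AP-1 match and the Itga4 region 1 RUNX match on the minus strand. Of 32851 such regions in the RefSeq table, 23.3% held GAGGAA, 14.0% TGTGGT and 6.75% TGANTCA on either strand. Of the 38 genes, 24 had an entry there, and 10, 3 and 1 of them held the respective motif in any of their entries. The percentages count regions and these numbers count genes, so the measures are unlike. Itga3 and Itga11, not shown, were among the 10 with GAGGAA. These matches describe letters, not binding.

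None of the 37 genes was called between omental tumor and spleen, where 215 of 16322 genes were called (1.32%, with 1.09% higher and 0.227% lower). At an unadjusted p below 0.05 there were 7, with 2 higher (Itgam, Itgav) and 5 lower in omental tumor (Vcam1, Itgad, Pecam1, Itga6, Cd226), against 9.01% of all genes tested (4.15% higher and 4.85% lower). In DESeq2 370 of the 12841 genes with an adjusted p were called (246 higher, 124 lower). Of the 37, 2 were among them, Itgam (log2 fold change 2.41, adjusted p = 0.0414) and Vcam1 (-2.29, adjusted p = 0.0456). Icam4, Itga10, Itga2b, Itgb4 and Itgb5 had no adjusted p in DESeq2. In limma-voom 163 of 16322 genes were called, and 0 of the 37. The median log2 fold change of the 37 was -0.23, with 17 positive and 20 negative, beside 0.11 over all genes tested. With library totals in place of TMM both moved up, to 0.067 and 0.37. By mouse, the median log2 ratio of omental tumor over spleen was 0.14 (mouse 2) and -0.62 (mouse 3), beside 0.070 and 0.091 over all genes tested. The omental values of 8 of the 37 lay above both spleen values (all genes tested: 16.4%), and those of 15 lay below both (all genes tested: 25.4%). Counts of the 38 genes made up 0.684% and 0.375% of gene counts in omental tumor and 0.875% and 0.808% in spleen. With 2 libraries against 2, an exact two-sided permutation test of such a value cannot give a p below 0.333.

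**Figure D1:**
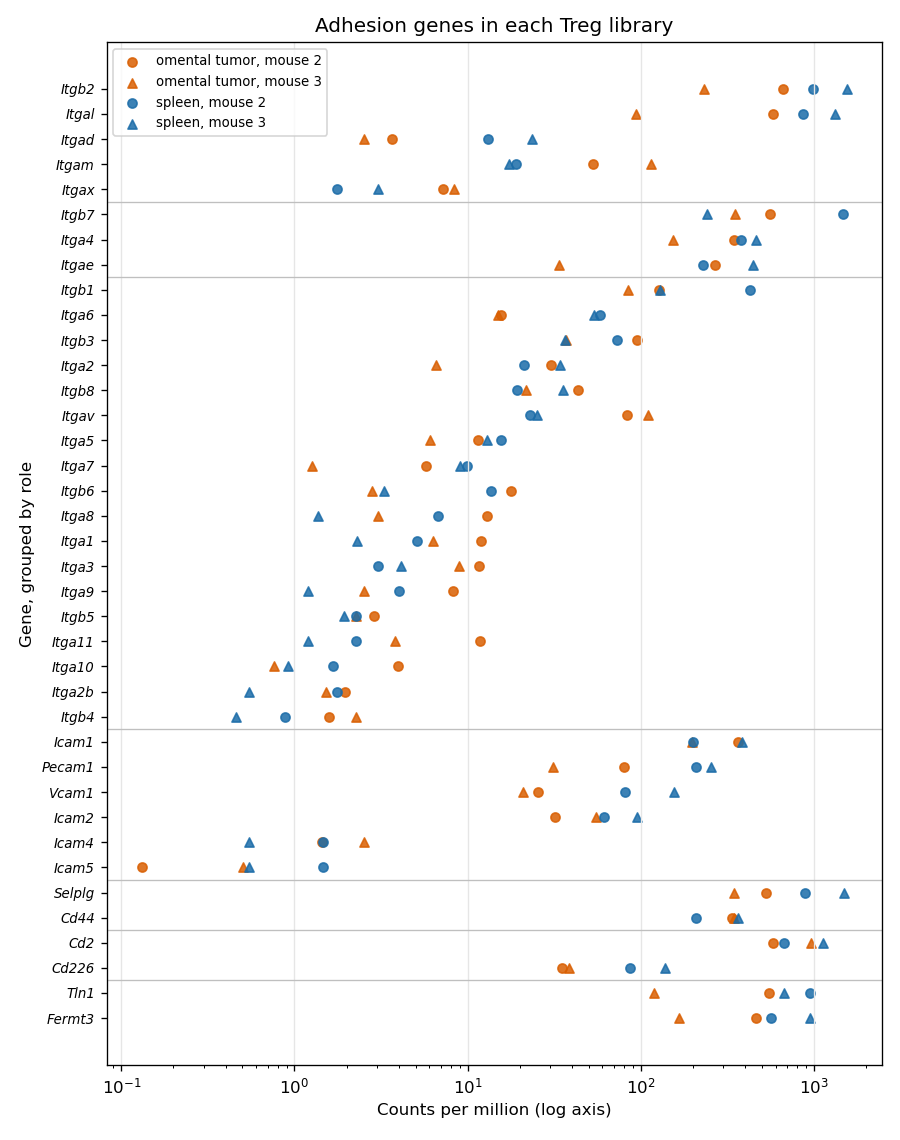
CPM of the 38 adhesion genes in each library on a log axis, with genes grouped by role and ordered within a role by spleen level; circles are mouse 2, triangles mouse 3, orange omental tumor and blue spleen. Itgam, Itgax and Itgav have both orange points to the right of both blue points, and Vcam1, Pecam1 and Itga6 have them to the left.

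Among the beta2 integrins of leukocytes, the chains of LFA-1 were low in the omental library of mouse 3. The chains Itgam and Itgax were higher in both omental libraries than in either spleen library. Itgal, the alpha chain of LFA-1, which binds ICAM-1 (chromosome 7, 127296260 to 127335138), stood at 578 CPM (mouse 2) and 94.2 CPM (mouse 3) in omental tumor and at 861 and 1330 CPM in spleen, a mouse order kept below. Both omental values lay below both spleen values, and the library of mouse 3 lay far below the other three. The log2 fold change was -1.70 (SE 0.90, adjusted p = 0.576), and the ratio within each mouse was -0.57 (mouse 2) and -3.82 (mouse 3) on the log2 scale. Its partner Itgb2, the common beta2 chain, followed the same order at 666 and 232 CPM against 981 and 1545 CPM (log2 fold change -1.49, adjusted p = 0.652). Scaled by exon length, the ratio of Itgal to Itgb2 was 0.403 in the omental library of mouse 2 and 0.408 and 0.400 in the spleen libraries, but 0.189 in the omental library of mouse 3. The first 3 of these ratios lie close together, and the mouse 3 omental library stands apart. With the trend of each library with exon length removed, the log2 fold change of Itgal was -1.67 (adjusted p = 0.496).

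Itgam encodes CD11b, which with Itgb2 forms Mac-1, the complement receptor and adhesion receptor of neutrophils, monocytes and macrophages (chromosome 7, 128062640 to 128118491). Its omental values were 52.6 and 114 CPM and its spleen values 18.9 and 17.4 CPM. The groups do not overlap, and the spleen libraries are close to each other. The log2 fold change was 2.20 (SE 0.79, adjusted p = 0.196), positive in both mice (1.47 and 2.70). Leaving out the omental library of mouse 2 brought it past the threshold (2.64, adjusted p = 0.0335), and leaving out that of mouse 3 gave the smallest value among the libraries left out in turn, 1.45. Itgax, which encodes the dendritic cell and macrophage chain CD11c (chromosome 7, 128129547 to 128150657), was low throughout at 7.22 and 8.36 CPM against 1.76 and 3.02 CPM (log2 fold change 1.70, adjusted p = 0.696).

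Itgad encodes CD11d, the beta2 partner known from splenic red pulp macrophages, and lies beside Itgam and Itgax on chromosome 7 (128154376 to 128223816). In contrast with its neighbours it stood at 3.68 and 2.53 CPM in omental tumor and at 13.1 and 23.5 CPM in spleen. The omental value lay below the spleen value in both mice (log2 ratios -1.77 and -3.10), and the log2 fold change was -2.54 (SE 0.96, adjusted p = 0.254). Cox6a2 lies inside Itgad and had 1 to 12 counts per library. As shares of the length-scaled level of the 4 alpha chains, Itgal made up 94.9% and 95.6% in the spleen libraries, 87.3% in the omental library of mouse 2 and 36.4% in that of mouse 3. Itgam made up 2.72% and 1.63% in spleen, and 10.4% and 57.7% in omental tumor. In the omental library of mouse 3, Itgam was thus the most abundant alpha partner of Itgb2 per length, and in the other three libraries Itgal was.

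**Figure D2:**
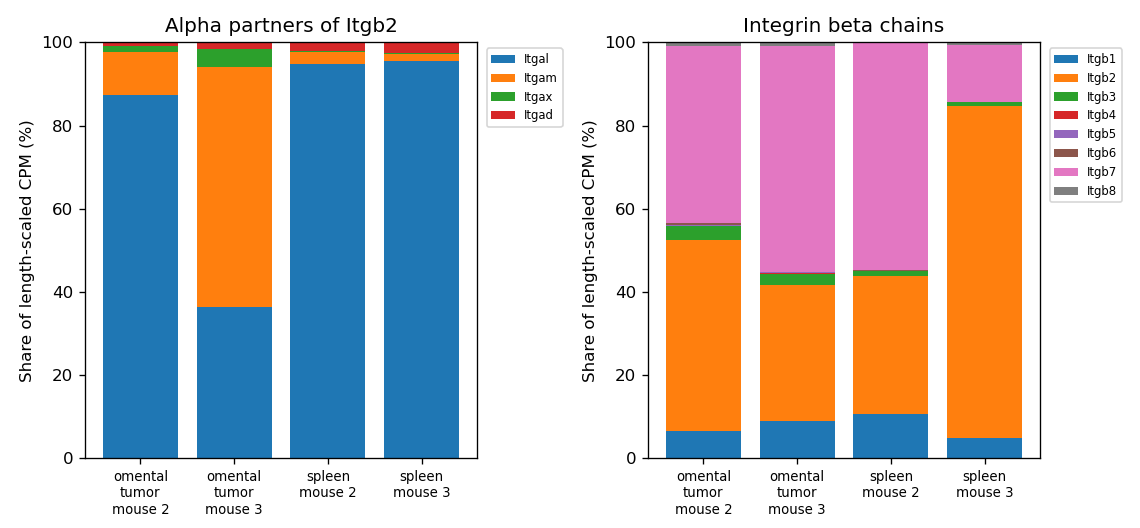
Stacked bars of the share of each integrin chain in the summed length-scaled CPM of its group, in percent, for the 4 alpha partners of Itgb2 (left) and the 8 beta chains (right) in each library. Itgal makes up 36.4% of the alpha partners in the omental library of mouse 3, and Itgb7 makes up 13.7% of the beta chains in the spleen library of mouse 3, each the lowest of the 4 libraries.

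Neutrophil markers were highest in the omental library of mouse 3, where Itgam was highest. The 2 most abundant of them, S100a9 and S100a8, had omental values of 1.57 and 0.131 CPM (mouse 2) and 476 and 412 CPM (mouse 3). Markers of macrophages and monocytes summed to 490 and 931 CPM in omental tumor and 235 and 466 CPM in spleen, with Lyz2 at 250 and 297 CPM and Cd14 at 23.8 and 273 CPM, against 6.85 and 61.8 CPM and 2.64 and 4.85 CPM. Of the 14 macrophage and monocyte markers tested, 7 were positive and 7 negative (median -0.04). Of these 3 rose (Cd14, Fcgr3, Lyz2) and 0 fell, beside 1.09% and 0.227% of all genes tested. The macrophage growth factor receptor gene Csf1r stood lower in both omental libraries (38.7 and 14.4 CPM against 69.9 and 110 CPM). Of the 8 neutrophil markers tested, 7 were positive (87.5%, against 53.6% of all genes tested), and 4 rose and 0 fell (all genes tested: 1.09% and 0.227%). The median log2 ratio of the neutrophil list was 0.44 for mouse 2 and 4.23 for mouse 3. None of the 15 macrophage and 9 neutrophil markers was at 0 in any library. Their part in the Itgam and Itgax values was not tested.

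The alpha4 and beta7 chains were among the abundant integrin transcripts, and their values differed between mice as well as between tissues. Itga4, the alpha chain of VLA-4 and of the gut homing receptor alpha4 beta7 (chromosome 2, 79255426 to 79333123), stood at 345 and 153 CPM in omental tumor and 381 and 465 CPM in spleen. Both omental values lay below both spleen values, as in 25.4% of all genes tested. The mouse 2 libraries differed by a log2 ratio of -0.14 and the mouse 3 libraries by -1.61, and the log2 fold change over both was -0.77 (SE 0.84, adjusted p = 0.825). Itgae, which encodes CD103, the E-cadherin binding chain of tissue lymphocytes (chromosome 11, 73090583 to 73147446), stood at 269 and 33.7 CPM against 227 and 444 CPM. It was a little higher in omental tumor than in spleen in mouse 2 (log2 ratio 0.24) and much lower in mouse 3 (-3.71). Its log2 fold change was -1.15 (SE 0.83, adjusted p = 0.737), and -0.41 without the omental library of mouse 3. Itgae overlaps Haspin, and Itga4 overlaps Cerkl, in the annotation.

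Itgb7, the partner of both (chromosome 15, 102215995 to 102231944), was set apart by spleen rather than by tumor. It stood at 560 and 349 CPM in the omental libraries, at 1469 CPM in the spleen library of mouse 2 and at 242 CPM in that of mouse 3. The spleen libraries thus enclose the omental ones, and the log2 fold change of -0.91 (SE 0.88, adjusted p = 0.802) became 0.85 (adjusted p = 0.785) without the spleen library of mouse 2. The log2 difference of Itgb7 between the spleen libraries was -2.60, and 14 of the 2599 genes with a mean of at least 100 CPM in spleen were at least as far apart. Itgb1, the beta chain of VLA-4 and of most matrix-binding integrins, was also higher in the spleen of mouse 2, at 425 against 130 CPM, with 128 and 84.6 CPM in omental tumor. For Itgb1, 2.54% of those genes were at least as far apart between the spleen libraries, and its log2 fold change was -1.38 (SE 0.82, adjusted p = 0.641). Per length, Itgb7 made up 54.5% of beta chain levels in the spleen library of mouse 2 and 13.7% in that of mouse 3, where Itgb2 made up 79.6%. The omental libraries were nearer to each other, with Itgb7 at 42.5% and 54.3%.

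The 18 chains of matrix-binding and RGD-binding integrins, which attach cells to collagen, laminin, fibronectin and related proteins, had 13 positive (72.2%, against 53.6% of all genes tested) and 5 negative log2 fold changes, 0 calls and a median of 0.46 (all genes tested: 0.11). Without the omental library of mouse 2 there were 7 positive and 11 negative, with a median of -0.38 (all genes tested: -0.32). Their omental values lay above both spleen values in 6 (33.3%, against 16.4% of all genes tested) and below both in 4 (22.2%, against 25.4%). Itgav, the shared alpha chain of the RGD-binding integrins and of alphaV beta8 (chromosome 2, 83724397 to 83806916), stood at 83.0 and 110 CPM in omental tumor and 22.8 and 25.2 CPM in spleen. The libraries of each tissue were close together and the tissues did not overlap. The log2 fold change was 2.01 (SE 0.79, adjusted p = 0.299), positive in both mice (1.85 and 2.12). Without each library in turn it stayed between 1.70 and 2.38, with adjusted p from 0.0964 to 0.967.

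Of the beta partners of Itgav, Itgb8, Itgb3 and Itgb6 gave no such separation. Itgb8 stood at 43.3 and 21.8 CPM in omental tumor and 19.3 and 35.4 CPM in spleen, so that the groups overlap (log2 fold change 0.25, SE 0.77, adjusted p = 0.931). Itgb3, which forms a vitronectin receptor with Itgav and the platelet fibrinogen receptor with Itga2b, stood at 95.3 and 37.0 CPM against 72.6 and 36.5 CPM. Here the mouse 2 libraries were higher than those of mouse 3 in both tissues, and the log2 fold change was 0.28 (adjusted p = 0.923). Itga2b itself lay between 0.549 and 1.97 CPM, and the platelet marker Pf4 between 0.549 and 3.54 CPM. Itgb6 followed mouse rather than tissue (17.7 and 2.79 CPM against 13.7 and 3.29 CPM). Itgb5 was low in all 4 libraries, at 2.89 and 2.28 CPM in omental tumor and 2.25 and 1.92 CPM in spleen. Its tissues did not overlap, but they lay close together (log2 fold change 0.31, adjusted p = 0.952).

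Itga6, a laminin receptor chain (chromosome 2, 71745616 to 71858416), stood at 15.6 and 14.9 CPM in omental tumor and 58.0 and 53.5 CPM in spleen. Both pairs of libraries were tight, and the tissues lay well apart. The log2 fold change was -1.87 (SE 0.79, adjusted p = 0.375), and it ran from -2.01 to -1.60 over all 13 alternative settings. Itga5, the fibronectin receptor chain, stood at 11.4 and 6.08 CPM against 15.6 and 13.0 CPM (log2 fold change -0.70, adjusted p = 0.847). Itga7, another laminin receptor chain, lay below 10 CPM in every library. The collagen receptor chain Itga2 was uneven at 30.3 and 6.58 CPM against 21.0 and 34.3 CPM. Itga3, which binds laminin, stood at 11.6 and 8.86 CPM in omental tumor and 3.03 and 4.12 CPM in spleen (log2 fold change 1.51, adjusted p = 0.704). The collagen receptor chains Itga1 and Itga11 were higher in both omental libraries as well, at 11.9 and 6.33 CPM against 5.09 and 2.29 CPM for Itga1 and at 11.8 and 3.80 CPM against 2.25 and 1.19 CPM for Itga11. Itga8, Itga9 and Itga10 had positive log2 fold changes of 0.98, 1.07 and 0.89 with overlapping libraries, and Itgb4 lay at or below 2.28 CPM. Fibroblast and mesothelial markers summed to 194 and 19.5 CPM in omental tumor and 23.9 and 8.78 CPM in spleen. The most abundant, Col3a1 and Dcn, had 91.2 and 37.3 CPM in mouse 2 tumor and at most 3.62 CPM elsewhere, and 2 and 3 of the 12 markers were at 0 in the mouse 3 libraries of tumor and spleen. Their part in the matrix-binding chains was not tested.

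**Figure D3:**
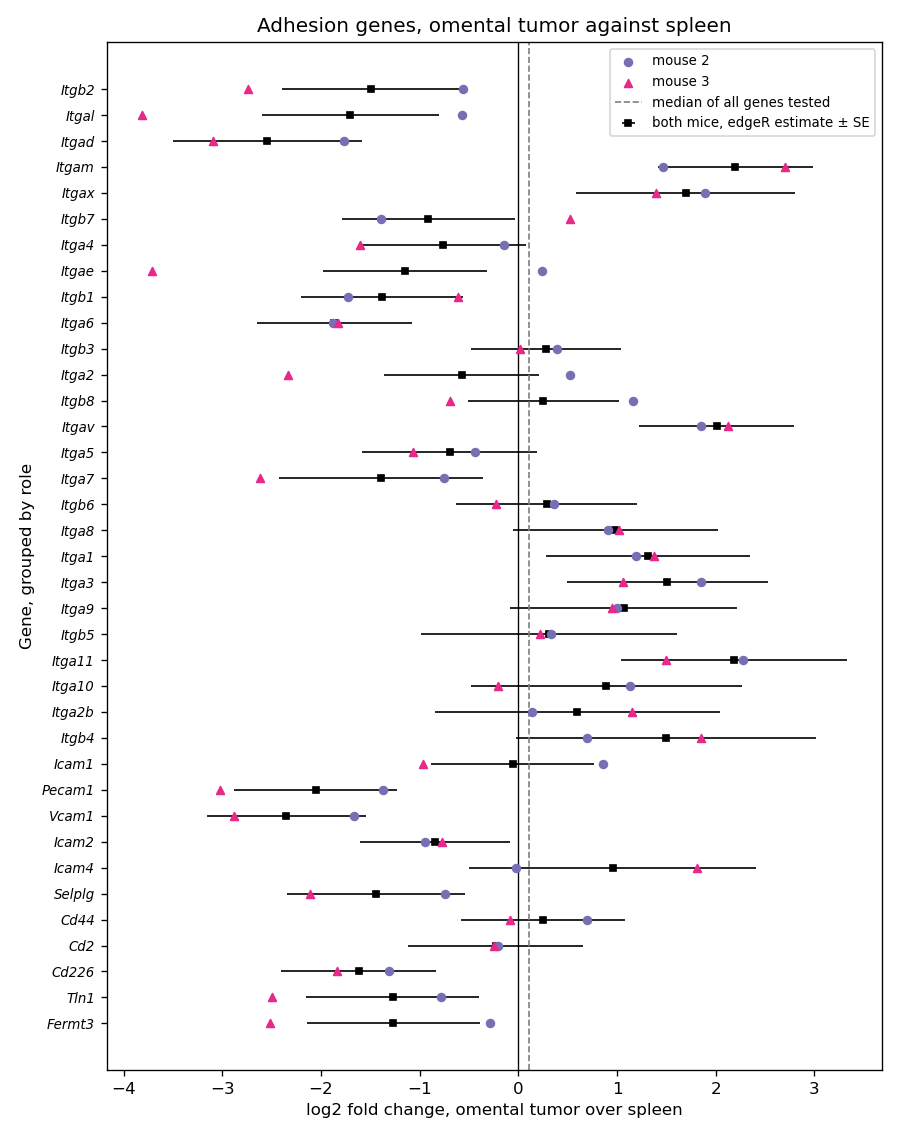
Log2 fold change of omental tumor over spleen for the 37 genes tested, with the edgeR estimate and its SE as black squares and bars, mouse 2 as circles, mouse 3 as triangles and the median of all genes tested (0.11) as a dashed line. The 2 mice lie close together for Itgav and Itga6 and far apart for Itgae, Itgal and Itgb7.

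Of the 5 tested integrin ligands of the immunoglobulin family, 0 were called and 4 were negative (80.0%, against 46.4% of all genes tested). Both omental values lay below both spleen values in 3 of the 5 (all genes tested: 25.4%). The median of the 5 was -0.85 (all genes tested: 0.11). Vcam1 encodes the ligand of VLA-4, known from activated endothelium and from splenic macrophages (chromosome 3, 116109949 to 116129688). It stood at 25.3 and 20.8 CPM in omental tumor and at 81.1 and 154 CPM in spleen, with no overlap. Its log2 fold change of -2.35 (SE 0.80, adjusted p = 0.153) had the smallest p of the 37 genes, and the ratios were -1.67 in mouse 2 and -2.88 in mouse 3. Pecam1, the CD31 adhesion molecule of endothelium, platelets and resting T cells (chromosome 11, 106654217 to 106750628), stood at 80.1 and 31.1 CPM against 208 and 255 CPM. Again both omental values lay below both spleen values (log2 fold change -2.05, SE 0.83, adjusted p = 0.332). Icam2, a constitutive ligand of LFA-1, was at 31.9 and 55.2 CPM against 61.6 and 94.7 CPM (log2 fold change -0.85, adjusted p = 0.790).

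Icam1, the inducible ligand of LFA-1, did not separate the tissues, at 363 and 196 CPM in omental tumor and 200 and 383 CPM in spleen. Mouse 2 was higher in tumor and mouse 3 higher in spleen, and the log2 fold change was -0.06 (SE 0.83, adjusted p = 0.985). Icam4, known from red cells, had 6 to 15 counts per library. Icam5, known from neurons, had 1 to 15 and was not tested.

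Genes of splenic red pulp macrophages form a list added after the values of Vcam1 and Itgad were seen. All 11 had negative log2 fold changes (all genes tested: 46.4%), with a median of -1.37. In edgeR 0 were called, and 4 had an unadjusted p below 0.05 (all genes tested: 4.85% lower). The median log2 ratio was -0.081 for mouse 2 and -2.60 for mouse 3. Of the 11, 7 went the same way in both mice, beside 11182 of all 16322 genes tested. Both omental values lay below both spleen values in 6 (54.5%, against 25.4% of all genes tested). The 11 genes summed to 227 and 182 CPM in omental tumor and 374 and 894 CPM in spleen. None was at 0 in any library, and Slc40a1 and Axl were the most abundant. Spic, the factor that defines these macrophages, was picked from the list and does not stand for all 11. It was at 2.76 and 2.53 CPM in omental tumor and 7.83 and 19.4 CPM in spleen. Vcam1 and Itgad were also higher in the spleen library of mouse 3 than in that of mouse 2. So were other adhesion genes, among them Cd2, Cd226, Fermt3, Icam2, Itgal, Itgb2 and Selplg, while Itgb1 and Itgb7 were lower there. Endothelial markers, led by Flt1 and Kdr, went the other way, with sums of 55.1 and 62.3 CPM in omental tumor against 21.8 and 5.58 CPM in spleen. The part of these cells in the Vcam1, Itgad and Pecam1 values was not tested.

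**Figure D4:**
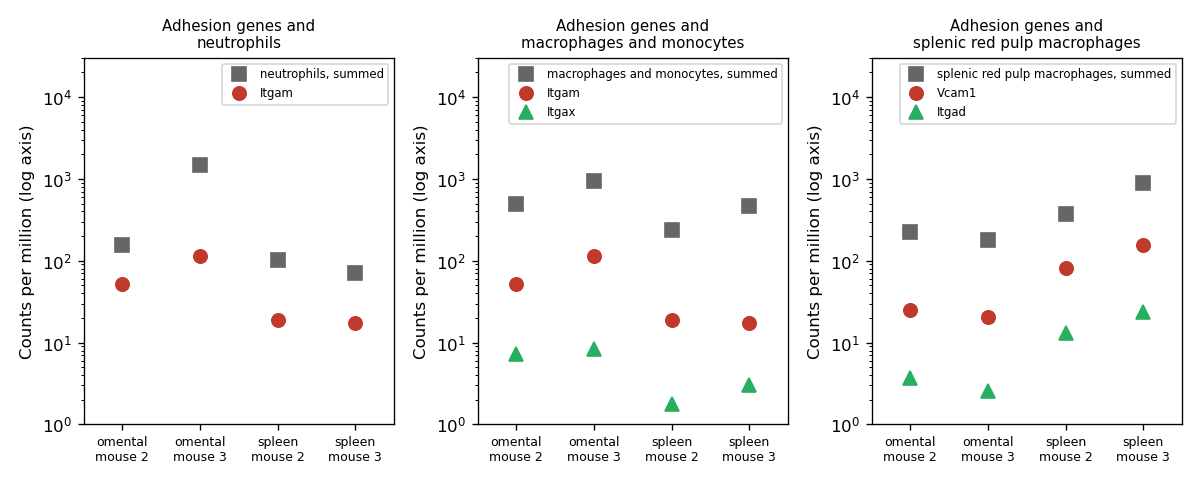
CPM on a log axis in each library for adhesion genes (red circles and green triangles) beside the summed CPM of a marker list (grey squares): neutrophils, macrophages and monocytes, and splenic red pulp macrophages. The highest Itgam value and the highest neutrophil sum fall in the omental library of mouse 3. Vcam1 and Itgad are highest where the red pulp sum is highest, in the spleen library of mouse 3. Itgal, Itgb2 and Selplg, which are not drawn, were highest in that library too.

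Of the receptors for rolling and tissue retention, Selplg was lower in both omental libraries and Cd44 did not separate the tissues. Selplg, which encodes the selectin ligand PSGL-1 (chromosome 5, 113818536 to 113832644), stood at 531 and 344 CPM in omental tumor and 888 and 1493 CPM in spleen. All omental values were the lower ones, and the log2 fold change was -1.44 (SE 0.90, adjusted p = 0.671). Cd44, the hyaluronan receptor of activated T cells, stood at 336 and 344 CPM in omental tumor and 207 and 365 CPM in spleen. The omental libraries were nearly equal and lay within the range of the spleen libraries (log2 fold change 0.25, SE 0.83, adjusted p = 0.939).

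Cd2, which binds CD48 and strengthens the contact of T cells with other cells, was the highest of the 38 genes per length in both tissues, with means of 442 and 518 CPM per kilobase of exon. Its levels were 583 and 955 CPM in omental tumor and 672 and 1133 CPM in spleen. Mouse 3 was higher than mouse 2 in both tissues, and within each mouse the tissues differed by log2 ratios of -0.20 and -0.25. Cd226, the activating receptor for CD155 that competes with TIGIT, stood at 34.9 and 38.5 CPM in omental tumor and 86.9 and 138 CPM in spleen. The tissues did not overlap for Cd226, whose log2 fold change was -1.62 (SE 0.78, adjusted p = 0.516).

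Both integrin activators were lower in the omental libraries than in the spleen libraries. Tln1, which encodes talin, the link from the beta chain tail to actin (chromosome 4, 43531519 to 43562691), stood at 550 and 119 CPM in omental tumor and 944 and 672 CPM in spleen. Fermt3, which encodes kindlin-3, the kindlin of blood cells (chromosome 19, 6998958 to 7019469), stood at 463 and 165 CPM against 565 and 945 CPM. For both, the omental library of mouse 3 was the lowest by far. Their log2 fold changes were both -1.27 (adjusted p = 0.715 and 0.716), and the ratios in mouse 2 were nearer to 0, at -0.78 and -0.29. Tln1 overlaps Creb3, and Fermt3 overlaps Trpt1, in the annotation.

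Genes that work with these receptors were taken in 4 lists. Of 40 genes of integrin activation and actin linkage, 32 were negative (80.0%, against 46.4% of all genes tested), with a median of -1.02, and 27 had both omental values below both spleen values (67.5%, against 25.4%). Of the 40, 1 fell and 0 rose (all genes tested: 0.227% and 1.09%). The one that fell was Evl, an actin filament regulator of the Ena/VASP family, at 15.1 and 4.56 CPM in omental tumor and 144 and 156 CPM in spleen (log2 fold change -3.91, SE 0.87, adjusted p = 0.00119). Its adjusted p was 0.114 when the omental library of mouse 3 was left out, and 0.102 and 0.0650 when the spleen libraries of mouse 2 and mouse 3 were. The median of this list was -0.67 by log2 ratio in mouse 2 and -1.18 in mouse 3. Of the Treg and T cell genes 84.6% were negative too, and the difference between these lists was not tested.

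Of 20 matrix ligands of integrins and CD44, 16 were tested and all 16 were positive (all genes tested: 53.6%). Their median was 1.98, and by mouse it was 1.62 (mouse 2) and 1.82 (mouse 3). Of these 3 rose and 0 fell (all genes tested: 1.09% and 0.227%): Thbs1 (log2 fold change 8.23, adjusted p = 1.28e-09), Spp1 (5.92, adjusted p = 2.92e-06) and Fn1 (3.92, adjusted p = 0.00115). They encode thrombospondin-1, osteopontin and fibronectin, and osteopontin and fibronectin are ligands of alphaV integrins. Omental values were 28.6 and 804 CPM for Thbs1, 9.32 and 824 CPM for Spp1 and 103 and 8.86 CPM for Fn1. Their spleen values reached at most 1.37, 9.79 and 6.65 CPM. The rise of Spp1 rests on the omental library of mouse 3, without which its log2 fold change was 0.36 and it was not called. Fn1 was not called without the omental library of mouse 2, where its log2 fold change was 1.25. Within each mouse, however, Fn1 was higher in omental tumor (log2 ratios 3.90 in mouse 2 and 3.22 in mouse 3). Leaving out a spleen library also ended both calls, with adjusted p of 0.0598 and 0.0532 (mouse 2 left out) and 0.160 and 0.593 (mouse 3 left out). With the mouse as a block Spp1 was not called (3.82, adjusted p = 0.189), nor was it in DESeq2 (adjusted p = 0.0841). Fn1 stayed called with the block (3.78, adjusted p = 0.0049) and in DESeq2 (3.99, adjusted p = 0.0079). Thbs1 stayed called without each library in turn, at 4.28 without the omental library of mouse 3.

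Of 19 selectins and genes of selectin ligand synthesis, 17 were tested, with 1 called higher and 0 lower (all genes tested: 1.09% and 0.227%). The median was 0.22 (all genes tested: 0.11). The member that rose was Cd24a, a ligand of P-selectin that is abundant on B cells, neutrophils and epithelium (18.5 and 97.2 CPM against 3.23 and 1.92 CPM, log2 fold change 4.48, adjusted p = 0.000145). Leaving out the omental library of mouse 3 gave 2.76 (adjusted p = 0.936), and leaving out the spleen library of mouse 2 or mouse 3 gave adjusted p of 0.236 and 0.117. Fut7, the fucosyltransferase that makes PSGL-1 bind selectins, was chosen after its values were seen. It stood at 6.70 and 6.08 CPM against 18.1 and 46.0 CPM (log2 fold change -2.32, adjusted p = 0.215).

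Of 34 tested counter-receptors and other adhesion molecules, 0 were called in edgeR, with a median of 0.21, 18 positive and 16 negative. At an unadjusted p below 0.05 there was 1, higher in omental tumor (all genes tested: 4.15% higher). It was the endothelial cadherin Cdh5 (1.71 and 10.4 CPM against 1.57 and 0.183 CPM, log2 fold change 2.76, adjusted p = 0.488). The other genes with the smallest p in this list were Cd6, Cdh1 and Esam. Cd6, a T cell receptor for ALCAM, stood at 617 and 154 CPM against 1005 and 1560 CPM (log2 fold change -1.73, adjusted p = 0.571). Cdh1, which encodes the E-cadherin that alphaE beta7 binds, stood at 15.5 and 1.77 CPM against 3.72 and 0.366 CPM (2.09, adjusted p = 0.579). Esam, an endothelial adhesion molecule, stayed at or below 7.85 CPM (2.41, adjusted p = 0.599).

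**Figure D5:**
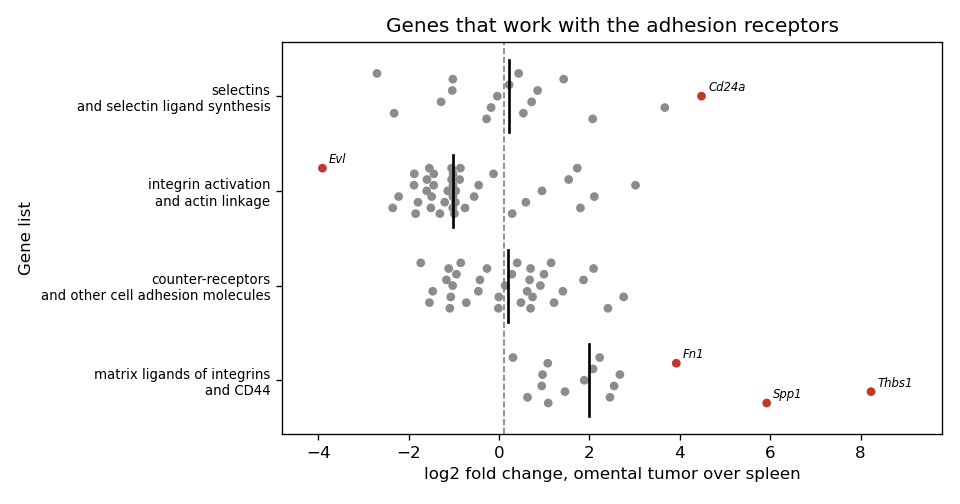
Log2 fold change of each tested gene in 4 lists of genes that work with the adhesion receptors; red points were called (adjusted p below 0.05), black lines are list medians and the dashed line is the median of all genes tested (0.11). The list of integrin activation and actin linkage lies mostly left of 0 (median -1.02) and the matrix ligands lie to its right (median 1.98).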

How the data were processed

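RNA of sorted Tregs from 2 mice and 2 tissues was measured by RNA-seq. Per the labels' protocols, cDNA came from the SMART-seq v4 kit and libraries from Nextera XT, neither of which marks strand, so reads of a gene and of one overlapping it cannot be told apart by strand. The authors deposited 1 raw count for each gene symbol. The submitters' processing notes name HTSeq, TopHat2, SAMtools, Trim Galore and the build mm10. Which versions, annotation or strand setting they used is not given in the sources used here. The 5 closing entries of each file name no gene and were left out. They held 82.9% (mouse 2) and 77.8% (mouse 3) of all counts in omental tumor, and 75.1% and 54.0% in spleen.

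The test was edgeR 4.0.16 under R 4.3.3 (filterByExpr with a minimum count of 10, TMM, estimateDisp, glmQLFit and glmQLFTest at their defaults, tissue as the only term). SE is the absolute log2 fold change over the square root of F. The prior degrees of freedom were infinite, so SE and p do not measure a gene's own spread. Log2 ratios by mouse, and between mice, use log CPM on the same TMM-scaled library sizes with a prior count of 2. Gene positions and exon lengths are from GENCODE M21 (GRCm38), which held all 38 genes; start regions are from RefSeq. DESeq2 1.42.0 and limma 3.58.1 (voom) were alternatives. The test was also tried on simulated data.

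Mouse numbers mark the same animal in both tissues and pair the samples; deviations from tissue means correlated at 0.234 between libraries of a mouse. The genes and lists were chosen with earlier results of these data known. All 38 genes could be named. From the related lists, called genes were named, or the 4 with the smallest p where none was called, and from marker lists the 2 most abundant genes. Foxp3, Cd4 and Ptprc of the Treg list were named too. Csf1r, Spic and Fut7 were named outside this rule, and so were called macrophage genes beyond the 2 most abundant. The lists of other cells were macrophages and monocytes, neutrophils, dendritic cells, B cells, CD8 T and NK cells, platelets, the red cell lineage, mast cells and basophils, eosinophils, endothelium, fibroblasts with mesothelium and, added later, red pulp macrophages. Some genes of these lists are not reported here.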

Additional observations from a re-analysis of the deposited data

How the results depend on the processing

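The alternatives were RLE factors, library gene totals, DESeq2, a minimum count of 50 or none, limma-voom, the mouse as a replicate block, each library left out in turn and, added after the data were seen, a quasi-likelihood fit with legacy = FALSE and removal of each library's trend with exon length. In 26 of the 37 tested genes the direction held under all 13 alternatives that gave a value, and 11 reversed in at least 1. With library totals Cd2 and Icam1 became 0.067 and 0.28, and with a minimum count of 50 they became 0.078 and 0.25. Leaving out 1 library at a time, where the lone library of a tissue is assumed to vary like the other pair, gave ranges of -0.72 to 0.53 for Cd2, -0.59 to 0.65 for Icam1, -0.76 to 1.52 for Itga10, -0.42 to 2.48 for Itga8, -0.046 to 2.13 for Itga9, -0.57 to 0.80 for Itgb3, -1.61 to 1.59 for Itgb6, -0.34 to 0.91 for Itgb8, -2.08 to 0.042 for Itga2, -0.16 to 0.98 for Cd44, -1.50 to 0.85 for Itgb7 and -0.21 to 4.46 for Cdh1.

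Called genes numbered 215 (178 higher, 37 lower), and 26 with library totals (24 and 2), 3 with a minimum count of 50 (3 and 0), 370 with DESeq2 (246 and 124), 163 with limma-voom (107 and 56) and 255 with the length trend removed (189 and 66). With the replicate block, which uses the pairing by mouse, there were 308 (241 and 67), of which 165 were among the 215, and 0 of the 37 adhesion genes, the smallest adjusted p being 0.0727 for Itgad. Without each library in turn calls ran from 44 to 606, with 38 to 323 higher and 6 to 283 lower, those of the adhesion genes from 0 to 1, and their median from -0.76 to 0.042. DESeq2 called 2 adhesion genes. Against TMM, the median log2 fold change of all genes moved by 0.26 with library totals, 0.13 with RLE factors and -0.43 without the omental library of mouse 2. Higher genes were 82.8% of calls, and 66.5% with DESeq2, 65.6% with limma-voom and 53.3% without that library. The calls of Cd24a, Evl, Spp1 and Fn1 were also lost with library totals and with a minimum count of 50, and that of Thbs1 with the latter (adjusted p = 0.0790). The omental library of mouse 3 is the shallowest, and genes at a few CPM have few counts there.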

Other observations

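Of the lists of other cell markers not described above, none had a called gene in edgeR. At an unadjusted p below 0.05 there were 2 dendritic cell genes and 1 B cell gene, all higher in omental tumor (all genes tested: 4.15% higher). All 8 tested dendritic cell markers and all 3 tested eosinophil markers had positive log2 fold changes (medians 1.13 and 1.21), beside 53.6% of all genes tested. Dendritic cell markers, led by Ccr9 and Xcr1, summed to 179 and 82.0 CPM in omental tumor and 68.2 and 37.1 CPM in spleen, B cell markers, led by Cd79b and Ms4a1, to 115 and 40.8 CPM against 71.4 and 59.4 CPM, and CD8 T and NK cell markers, led by Cd8b1 and Klrk1, to 58.9 and 30.4 CPM against 51.8 and 46.9 CPM. Mast cell and basophil markers, led by Ms4a2 and Kit, summed to 43.7 and 16.0 CPM against 31.9 and 10.6 CPM. Eosinophil markers, led by Ccr3 and Il5ra, summed to 128 and 89.9 CPM against 41.8 and 57.5 CPM, platelet markers, led by Pf4 and Clec1b, to 13.4 and 7.60 CPM against 7.83 and 4.58 CPM, and red cell markers, led by Alas2, to 6.83 and 2.79 CPM against 6.56 and 3.48 CPM.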
